A study of Arabidopsis thaliana with 27 samples.

Results

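The comparison is between cells of a plant culture 36 h after they were induced to become tracheary elements and the same cells at 0 h. It sets 6 of the 27 arrays of the series against each other, the 3 of 36 h and the 3 of 0 h, chosen by the time and letter in their titles, while all 27 arrays give the spread behind its standard errors and p-values. It covers all 22743 probe sets that are not controls and have a value in every array. The series follows 3 independent time-courses, lettered A, B and C, every 12 h from 0 h to 96 h, with total RNA read on single-colour Affymetrix arrays. Each time therefore has 3 arrays, and each 36 h array has a 0 h array of its own time-course.

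All groups come from 1 habituated culture, grown in suspension, of the Arabidopsis thaliana accession Col-0, and no group carries a mutation or a transgene. At 0 h the cells are described as undifferentiated and dividing. For induction, cells of 7 days were moved to fresh medium with NAA (an auxin, 6 µg/ml), BAP (a cytokinin, 1 µg/ml) and epibrassinolide (a brassinosteroid, 4 µM). At 36 h the cells are described as being at the initial step of differentiation. All 36 h cells had received new medium as well as hormones, and a culture moved to medium without hormones was not analysed here, so the 2 changes cannot be told apart. Arrays read the whole culture, in which fewer cells of a type and less RNA per cell cannot be told apart.

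Tracheary elements are the water-conducting cells of xylem. They form from cells that stop dividing, lay down a patterned secondary wall of cellulose, xylan and lignin, and then digest their own contents. In cultures the process is set off by auxin with cytokinin, and brassinosteroids act late in it.

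Levels are the authors' normalized values, taken from their range to be on a log2 scale. On that scale a difference of 1 is a 2-fold change, and the lowest possible level is 0. Levels under 1 are close to that floor, so a difference that starts or ends there may be understated. Why levels stop at 0 is not recorded. Medians of the 6 arrays lay between 0.87 and 0.99, and arrays of the same time correlated at 0.961 or more at 0 h and at 0.982 or more at 36 h, over probe sets. The control probe sets for the 3′ and 5′ ends of GAPDH mRNA, a measure of how whole the RNA is, differed by 0.53, 3.74 and 1.50 in A, B and C at 0 h and by 0.45, 0.92 and 0.91 at 36 h. The 0 h array of B thus had the largest difference of the 6.

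Between 0 h and 36 h, 3075 of 22743 probe sets (13.5%) passed the test, a limma fit with a Benjamini-Hochberg adjusted p under 0.05. Of these, 1358 rose (5.97%) and 1717 fell (7.55%), and 3042 differed in the same direction in all 3 time-courses. The balance depends on scaling, with 1644 up and 1481 down after arrays were centred on their medians and 1553 up and 1517 down after quantile normalization. This fit leaves out the pairing by time-course, and with the letter as a block it gave 4295 calls. The 6 arrays alone gave 2171 calls, or 2442 with the letter as a block. The change was at least 1 log2 unit in 813 of those that rose and in 1113 of those that fell. Many of these changes touch the floor, since 284 probe sets rose from a 0 h mean under 1 and 582 fell to a 36 h mean under 1. Without the 0 h array of B, 844 probe sets rose in place of 1358, and without the 9 arrays of B 1560 were called in all. The differences of 36 h from 0 h correlated at 0.677 between A and B, 0.733 between A and C and 0.772 between B and C over probe sets, which share arrays and are not independent.

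**Figure D1:**
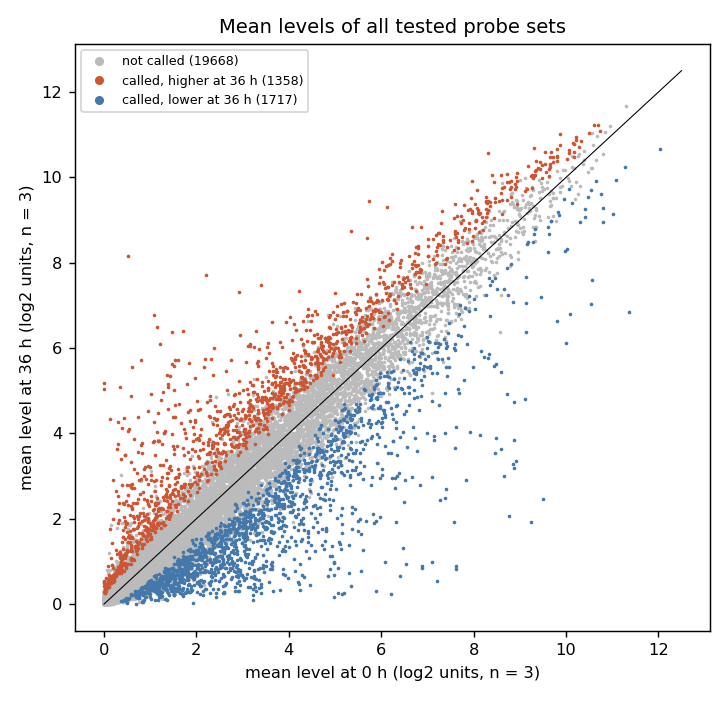
Each point is 1 of 22743 probe sets, with its mean level at 0 h on the x axis and at 36 h on the y axis (log2 units, 3 arrays each). Called probe sets are coloured by direction, the line marks equal levels, and the 582 probe sets that fell to under 1 lie along the bottom.

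Of the 13348 genes with a probe set of their own, 1613 changed (12.1%), 771 upward (5.78%) and 842 downward (6.31%), and their median difference was 0.04. At both times 6898 of these genes had a mean under 1. The groups of genes below are set beside these shares. The groups and their members were chosen with earlier results of these data known, so their counts are a description only.

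The 12 genes that rose most went up by 3.36 to 5.35 log2 units, and 6 of them started from a 0 h mean under 1. GH3.1, of a family of enzymes that join amino acids to hormones such as auxin, had 0 h levels of 0.33, 0.36 and 0.36 in A, B and C, against 4.94, 5.19 and 5.11 after induction. Every 36 h array was far above every 0 h array, and the rise was 4.73 ± 0.42 (SE, adjusted p = 1.4e-07). AGL28, a transcription factor of the MADS-box family, went from 0.19, 0.00 and 0.19 to 4.03, 4.52 and 4.47, a rise of 4.21 ± 0.36 from the floor (adjusted p = 9.62e-08).

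PRX52, a class III peroxidase known for its part in making lignin in Arabidopsis stems, read 0.61, 2.30 and 0.90 at 0 h and 5.01, 4.89 and 5.04 at 36 h. The 36 h arrays were nearly equal while the 0 h array of B was the highest of its time, and the rise was 3.71 ± 0.63 (adjusted p = 0.000323). SBTI1.1, a subtilase known to cleave the precursor of a phytosulfokine growth peptide, went from 1.61, 1.49 and 1.07 to 6.00, 4.59 and 4.67, with no overlap and with A highest at both times. Its rise was 3.70 ± 0.33 (adjusted p = 1.4e-07). AT1G33440, which is NPF4.4 of the nitrate and peptide transporter family, went from 1.85, 1.56 and 1.14 to 5.23, 5.0 and 4.81 and rose by 3.50 ± 0.33 (adjusted p = 3.02e-07).

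The other 7 of the 12 bear locus names alone. AT2G04850 rose most of all, from 1.88, 0.52 and 1.03 to 6.96, 6.46 and 6.06, or by 5.35 ± 0.49 (adjusted p = 1.86e-07). AT5G24820 was at the floor in all 0 h arrays, with a highest level of 0.01, and read 4.21, 5.68 and 5.62 at 36 h. At 24 h its mean was still 1.73, so most of its rise of 5.17 ± 0.71 (adjusted p = 3.24e-05) came between 24 h and 36 h, although the step from 24 h did not itself pass the test. The remaining 5, AT2G34060, AT2G43870, AT5G02140, AT4G19460 and AT3G15357, rose by 4.91, 3.97, 3.54, 3.42 and 3.36.

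The 12 genes that fell most went down by 4.09 to 6.72 log2 units, and 9 of them reached a 36 h mean under 1. OCT1, a transporter of organic cations and carnitine, read 4.60, 8.47 and 8.57 at 0 h and 0.38, 0.38 and 0.85 at 36 h. The 0 h array of A was far below those of B and C yet far above all of 36 h, and the gene fell by 6.67 ± 0.94 log2 units (adjusted p = 4.1e-05). Another member of its family, OCT4, fell by 2.03 ± 0.24 (adjusted p = 4.37e-06), and 2 of 3 measured members fell.

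PRXR1, a class III peroxidase, read 6.85, 5.29 and 7.26 at 0 h and 0.65, 1.39 and 1.88 at 36 h. It fell by 5.16 ± 0.41 (adjusted p = 4.37e-08), so members of 1 enzyme family stood among the genes that rose most and among those that fell most. The other 10 of the 12 have locus names alone. AT5G17340 fell most, from 5.51, 8.49 and 8.88 to 0.97, 1.0 and 0.74, or by 6.72 ± 0.77 (adjusted p = 3.19e-06), with A lowest at 0 h as for OCT1. AT5G20790 read 8.66, 8.80 and 9.27 at 0 h and 3.35, 3.42 and 3.27 at 36 h. It fell by 5.57 ± 0.53 (adjusted p = 3.2e-07) and, unlike most of the 12, ended well above the floor.

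**Figure D2:**
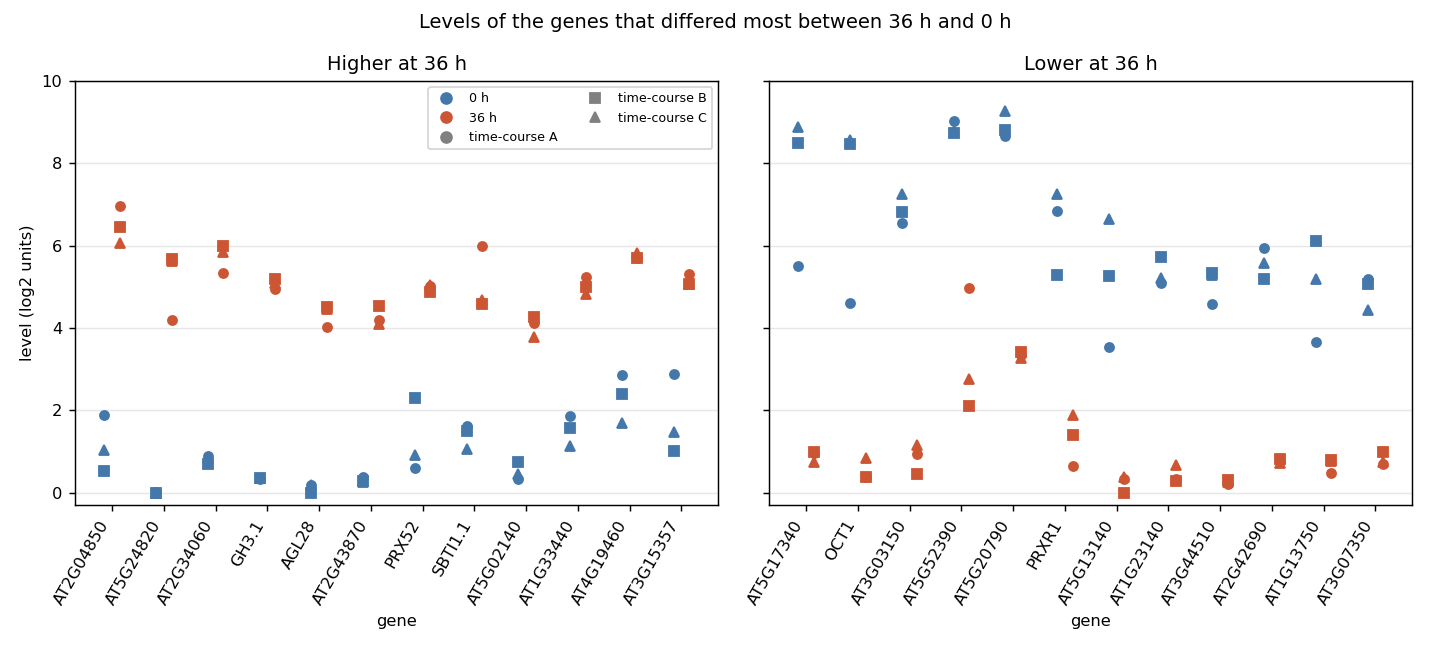
Levels (y axis, log2 units) of the 12 genes that rose most (left) and the 12 that fell most (right) in each array of 0 h (blue) and 36 h (red), with a marker shape for each time-course. No 36 h point of a gene overlaps its 0 h points, and OCT1 and AT5G17340 show the low 0 h array of A.

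Among genes that respond to hormones, some members rose and none of the 25 measured fell, while 5 rose and 16 had a mean under 1 at both times. Of 5 GH3 genes, GH3.1 and GH3.3 rose and the other 3 were not called (list median 0.13). GH3.3, which conjugates auxin to amino acids, went from 1.03, 0.78 and 0.76 to 3.30, 3.16 and 2.57, a rise of 2.15 ± 0.22 with no overlap (adjusted p = 6.89e-07). Its mean had been 7.00 at 12 h and 3.39 at 24 h, so 36 h lay on the falling side of an early peak, whereas GH3.1 went from 1.45 at 12 h to 4.78 at 24 h and then stayed between 4.42 and 5.39 to the end.

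Of 7 Aux/IAA genes, a family of repressors of auxin-response genes, IAA29 and IAA30 rose (list median 0.30). IAA29 went from 0.75, 0.47 and 0.57 to 2.85, 2.35 and 2.95, a rise of 2.12 ± 0.47 (adjusted p = 0.0035, and 0.0575 without the arrays of B). IAA30 rose by 2.12 ± 0.67 (adjusted p = 0.0376), but with its 36 h arrays at 3.63, 2.22 and 2.93 the call was lost on leaving out any of the 6 arrays in turn other than the 36 h array of B (adjusted p = 0.0523 to 0.145). None of 3 SAUR genes was called, and all 3 had means under 1 at both times.

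ARR15, a response regulator that cytokinin induces and that damps the cytokinin response, was the 1 of 6 measured response regulators that rose. It went from 0.70, 0.82 and 0.76 to 2.20, 1.48 and 1.31, by 0.90 ± 0.24 (adjusted p = 0.0151). Leaving out the highest array, that of A at 36 h, ended the call (adjusted p = 0.107), as did leaving out the arrays of B (0.133) or fitting the 6 arrays alone (0.0694, or 0.0776 with the letter as a block). Its mean had been 2.97 at 12 h. Both measured genes linked to brassinosteroids lay close to the threshold. EXO, which brassinosteroid induces in shoots, had means of 8.60 and 7.25 (difference -1.34, adjusted p = 0.0522), and BRL1, a brassinosteroid receptor of vascular cells, had means of 0.83 and 1.65 (difference 0.82, adjusted p = 0.0546). Neither was called, but with the letter as a block, and under 8 of 19 alternatives each, they were (adjusted p = 0.0491 for EXO and 0.0196 for BRL1 with the block).

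**Figure D3:**
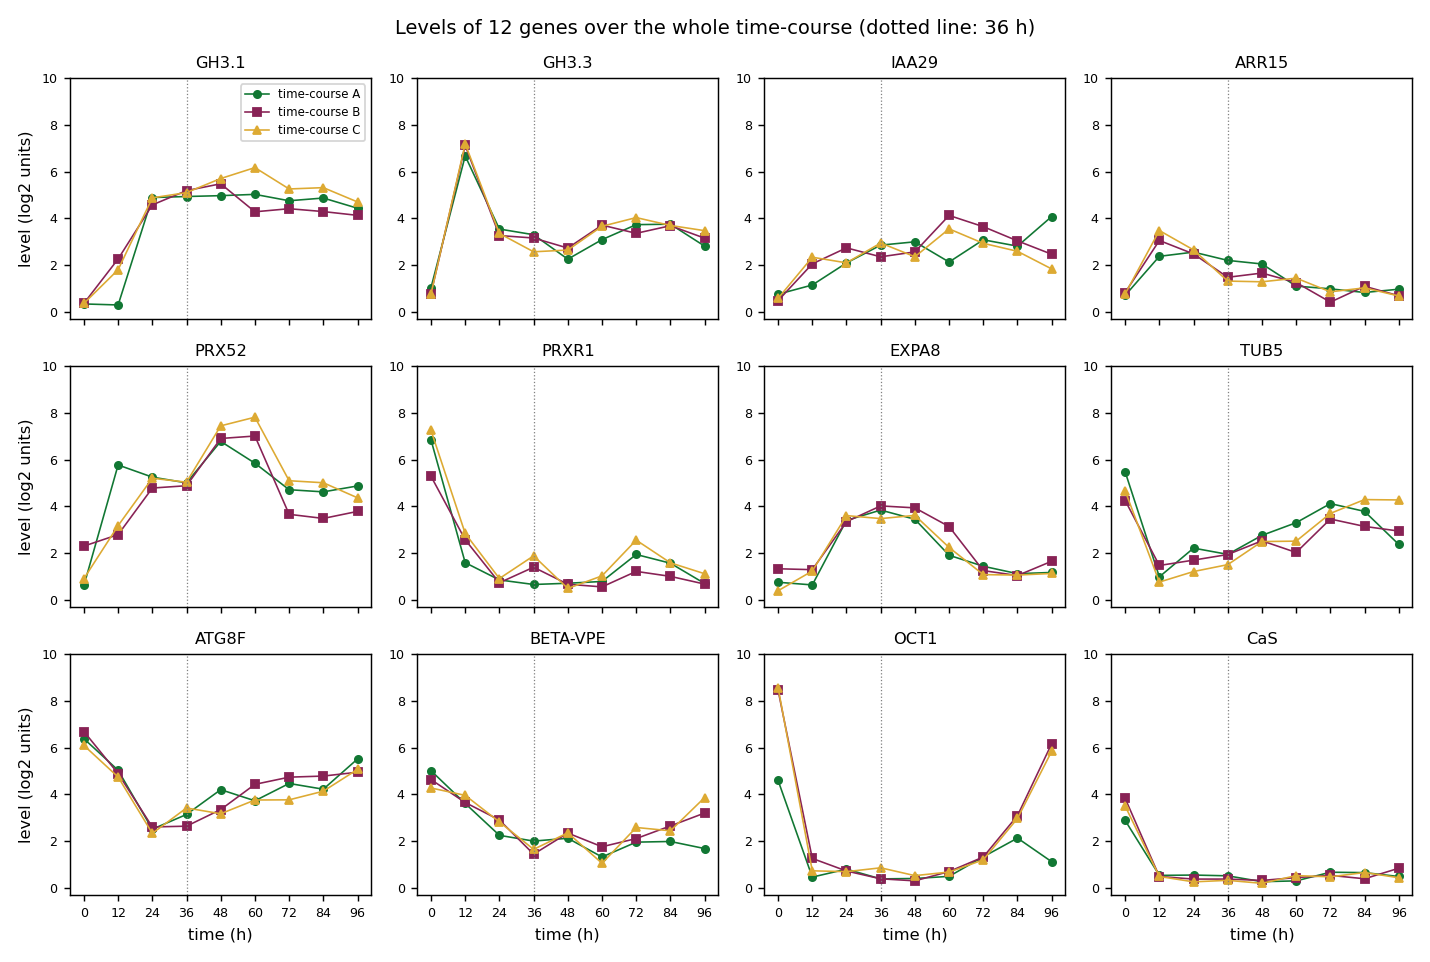
Levels (y axis, log2 units) of 12 genes in each time-course from 0 h to 96 h (x axis, hours), with a dotted line at 36 h. GH3.3 and ARR15 peak at 12 h, PRX52 is higher at 48 h and 60 h than at 36 h, and OCT1 and CaS leave their 0 h level by 12 h.

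The genes that define xylem vessel cells could be read only in small part, because most have no probe set with a single gene name here, and so the description of the 36 h cells could not be checked with them. Of 37 measured genes in the xylem lists, 1 rose, 7 fell and 15 had a mean under 1 at both times. Those lists are broad and include 11 autophagy genes, 4 vacuolar processing enzymes, 7 class III peroxidases and 6 genes of CLE peptide signalling. CLE41, which acts against xylem formation, is among the 7 that fell, so these counts do not describe vessel markers alone. The measured regulators LHW, which acts in early vascular divisions, and PHV, which takes part in vascular patterning, were not called (differences of -0.24 and -0.39).

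For the secondary wall, IRX15-L, needed for normal xylan chains, read 4.34, 4.72 and 4.36 at 0 h and 2.58, 1.86 and 1.99 at 36 h. It fell by 2.33 ± 0.33 (adjusted p = 4.03e-05), with no overlap, while IRX15 (means of 0.62 and 1.01) and GUT2 (0.86 and 0.73) of the same list were not called. HCT, an enzyme of lignin precursor synthesis, had means of 5.02 and 3.91 (difference -1.11, adjusted p = 0.0831, and 0.0363 with the letter as a block). The list of class III peroxidases was matched by name, so members that bear locus names alone may be missing from it. Of its 7 measured members 1 rose and 2 fell. Beside PRXR1, the other that fell was AT2G41480, which is PRX25. It went from 5.17, 5.28 and 5.85 to 2.58, 2.12 and 1.98 (fell by 3.20 ± 0.42, adjusted p = 1.7e-05).

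CLE41, the source of a peptide that keeps vascular stem cells from becoming xylem, read 3.70, 5.90 and 5.79 at 0 h and 3.92, 2.88 and 2.95 at 36 h. In A the 36 h level was no lower than that of 0 h, so the groups overlapped. It fell by 1.88 ± 0.50 over the 3 time-courses (adjusted p = 0.0141), and the call was lost without the array of B or of C at either time (adjusted p = 0.0624 to 0.0934). The other 5 genes of its list had means under 1.

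Genes for digestion of cell contents fell or were not called. BETA-VPE, a protease of the vacuole that matures seed proteins and is related to those that trigger vacuolar cell death, read 5.01, 4.64 and 4.27 at 0 h and 2.0, 1.44 and 1.64 at 36 h. It fell by 2.95 ± 0.37 (adjusted p = 8.9e-06) with no overlap, while GAMMA-VPE, the main vegetative form, had means of 5.56 and 5.23 (adjusted p = 0.497). Of 11 autophagy genes 2 fell and none rose (list median -0.67). ATG8F, which encodes a protein that coats autophagosomes, went from 6.39, 6.69 and 6.10 to 3.14, 2.64 and 3.42 and fell by 3.33 ± 0.29 (adjusted p = 9.62e-08). APG8H of the same family fell by 1.25 ± 0.23 (adjusted p = 0.000538, and 0.0696 without the arrays of B).

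Of 17 genes of cell division, 1 rose and 4 fell. SIM, the SIAMESE inhibitor of cyclin-dependent kinases that turns dividing cells to endoreduplication, went from 0.49, 0.25 and 0.66 to 2.50, 2.37 and 2.38. All 36 h arrays stood above all 0 h arrays, and the rise was 1.95 ± 0.32 (adjusted p = 0.000228). It went on to a mean of 3.63 at 60 h.

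Among 9 genes of mitosis and cytokinesis 2 fell and none rose (list median -0.33). With the letter as a block 3 fell, as BUBR1 was then called too (difference -0.70, adjusted p = 0.0106). UBC19, a ubiquitin-conjugating enzyme of mitosis, fell by 1.43 ± 0.35 (adjusted p = 0.00832), and 3xHMG-box2, a protein of mitotic chromosomes, fell by 1.66 ± 0.55 (adjusted p = 0.0481). The call of UBC19 was lost without the 0 h array of A or the 36 h array of B (adjusted p = 0.0589 and 0.0636), and that of 3xHMG-box2 without any of the 6 arrays (0.0667 to 0.18). The kinases AUR1 and AUR2 of the spindle and cell plate, named after their values were seen, had means of 5.20 and 5.0, and of 4.73 and 4.48, and were not called.

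Of 6 histone genes, HTB2 for an H2B histone fell by 1.12 ± 0.33 (adjusted p = 0.0262) and HON4, a linker-histone-like protein, by 0.82 ± 0.22 (adjusted p = 0.0145). The call of HTB2 held only on leaving out the 36 h array of A (adjusted p = 0.0526 to 0.139 for the other 5), and that of HON4 was lost without the 0 h array of B or C (0.0628 and 0.0668). HTB1, for another H2B histone, was called with the letter as a block (difference 0.85, adjusted p = 0.0168). The replication genes POLA3 and PRL had differences of 0.14 and 0.06 and were not called.

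Of 7 tubulin genes, TUB5 for a beta-tubulin fell from 5.48, 4.25 and 4.67 to 1.94, 1.94 and 1.50, by 3.01 ± 0.42 (adjusted p = 3.66e-05). The other 6 were not called, though TUA6 (difference 0.80) was with the letter as a block (adjusted p = 0.0421), and the list median was -0.06. TUB5 was lowest at 12 h, with a mean of 1.07, and had returned to 3.76 by 72 h. SP1L2, a SPIRAL1-like protein of cortical microtubules, fell by 2.43 ± 0.70 (adjusted p = 0.0234), with the call lost without the array of B or of C at either time (0.066 to 0.116). In its list of 7 genes, SP1L3 and ATMAP65-6 were called as well with the letter as a block. Their differences were -0.72 and -1.01 (adjusted p = 0.00448 and 0.0285). Of 29 IQD and TRM genes, whose proteins sit on microtubules, 5 fell and none rose, and 18 had means under 1. Leaving out single arrays gave 2 to 6 that fell, with 2 without the 0 h array of B or the 36 h array of C and 3 without the 0 h array of C or the 36 h array of A or B. Without the 0 h array of B, IQD30, TRM20 and TRM21 were not called (adjusted p = 0.0847, 0.216 and 0.0854). IQD28 read 2.89, 2.95 and 2.78 at 0 h and 1.05, 1.44 and 1.22 at 36 h and fell by 1.64 ± 0.22 (adjusted p = 1.91e-05).

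Genes for the primary wall changed in both directions. Of 19 expansins, which loosen walls in growth, 2 rose and 1 fell, and 11 had means under 1. EXPA8 went from 0.75, 1.33 and 0.38 to 3.84, 4.02 and 3.48, a rise of 2.96 ± 0.27 (adjusted p = 1.54e-07) with no overlap. It was near this level from 24 h to 48 h and back at 1.25 by 72 h. EXPB2 rose by 0.73 ± 0.19 (adjusted p = 0.0118, and 0.0564 without the 36 h array of C), and EXLA1 fell by 2.35 ± 0.58 (adjusted p = 0.00847, and 0.146 without the arrays of B).

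Of 10 xyloglucan endotransglucosylases, which cut and rejoin the xyloglucan between cellulose fibrils, 3 fell and none rose (list median -0.23). XTH19 went from 8.85, 8.24 and 8.24 to 6.89, 4.43 and 5.41 and fell by 2.87 ± 0.65 (adjusted p = 0.00438, and 0.144 without the arrays of B). XTH16 went from 5.29, 5.27 and 5.95 to 2.75, 3.10 and 3.26 and fell by 2.46 ± 0.21 (adjusted p = 8.26e-08). EXGT-A3 fell by 0.88 ± 0.28 (adjusted p = 0.039), a call lost without any of the 6 arrays (0.06 to 0.158). None of 15 GH9 cellulases was called, although 2 fell with the letter as a block. These were GH9B8 and GH9A3, called under 8 and 2 of 19 alternatives. In the other direction, GH9B6 rose under 5 of 19 (adjusted p = 0.00383 without the arrays of B).

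Of 23 TBL genes, a family of wall polysaccharide acetyltransferases, 1 rose and 4 fell. The 4 became 2 without the array of B or of C at either time, and 0 without all arrays of B. TBL39 went from 9.70, 9.96 and 10.25 to 8.37, 8.24 and 8.21 (fell by 1.70 ± 0.38, adjusted p = 0.00379), and TBL36 had means of 10.40 and 9.08 (fell by 1.32 ± 0.33, adjusted p = 0.00844). Without the arrays of B their adjusted p was 0.0721 and 0.114. TBL37 rose by 1.04 ± 0.30 (adjusted p = 0.0241), with the call lost without any of the 6 arrays other than the 0 h array of B (0.0536 to 0.122).

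**Figure D4:**
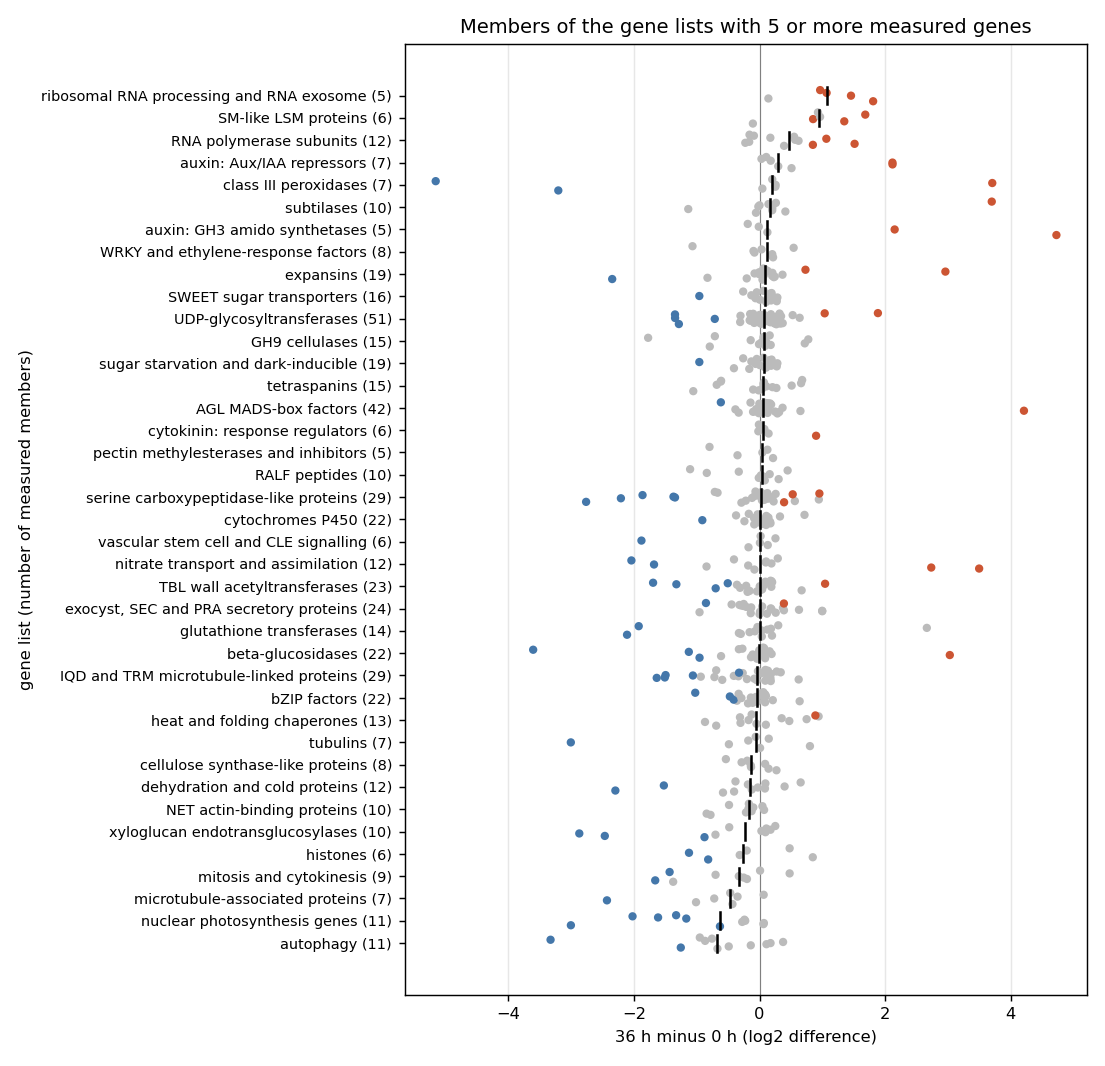
Log2 difference of 36 h from 0 h (x axis) for each member of the gene lists with 5 or more measured genes, with called members in red (rose) or blue (fell), others in grey, and the list median as a bar. Most members lie near 0, with list medians between -0.67 and 1.07, and a few members lie far out.

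Transporters and enzymes of nutrient supply moved in both directions. Of 12 genes of nitrate transport and assimilation and of the related NPF family, 2 rose and 2 fell. Beside NPF4.4, AT1G59740, which is NPF4.3, rose from 1.51, 0.71 and 1.01 to 2.79, 4.37 and 4.27 (2.74 ± 0.51, adjusted p = 0.000736, and 0.0519 without the arrays of B). GTR1, an NPF member that carries glucosinolates, fell by 2.04 ± 0.27 (adjusted p = 2.05e-05).

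BGLU28, a thioglucosidase gene that rises in sulphur-starved seedlings, went from 0.00, 0.73 and 0.38 to 2.55, 3.98 and 3.68. It rose by 3.03 ± 0.58 (adjusted p = 0.00106), while APS4, an ATP sulphurylase that opens sulphate assimilation, fell by 1.60 ± 0.38 (adjusted p = 0.00686). Of 22 beta-glucosidases BGLU28 was the 1 that rose and 3 fell, or 5 without the 0 h array of A, of which BGLU44 went from 3.84, 4.04 and 4.99 to 0.72, 0.37 and 0.97 (fell by 3.61 ± 0.23, adjusted p = 3.32e-09). Of 29 serine carboxypeptidase-like proteins 3 rose, or 1 without the 36 h array of C, and 5 fell, and SCPL34 fell by 2.76 ± 0.44 (adjusted p = 0.000168).

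Nuclear genes for chloroplast proteins were the group with the largest share of members that fell, among lists of 10 or more genes: 6 of 11 fell (3 without the arrays of B), none rose, and the median was -0.63. CaS, a calcium-sensing protein of thylakoids, read 2.88, 3.83 and 3.50 at 0 h and 0.51, 0.37 and 0.31 at 36 h, and fell by 3.00 ± 0.16 (adjusted p = 2.53e-10). PSBY, of photosystem II, fell by 2.02 ± 0.29 (adjusted p = 4.77e-05), and PSBW, also of photosystem II, fell by 1.62 ± 0.27 (adjusted p = 0.000292). RCA, which activates Rubisco, fell by 1.33 ± 0.32 (adjusted p = 0.0068, and 0.0565 without the 0 h array of C). The mean level over the 11 genes was 1.53 to 2.29 in the 0 h arrays and 0.92 to 0.97 in those of 36 h, so these genes were low at both times, and their part in other differences was not tested.

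Markers of other cell types gave little signal. The 2 root hair markers, EXPA7 and EXPA18, and the 2 markers of embryo or stem cells, OLEO3 and BBM, had means under 1 at both times. Of 4 phloem markers CLE41 fell as above, OPS had means of 4.80 and 4.81, and CLE44 and ATPP2-B3 had means under 1, while the mean over the 4 was 2.14 to 2.82 at 0 h and 2.20 to 2.28 at 36 h.

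In the lists for stress and detoxification most genes were not called, while 4 rose and 8 fell. Of 51 UDP-glycosyltransferases, the largest of these lists, 2 rose and 4 fell, and of 12 dehydration and cold proteins 2 fell. Of 3 genes of jasmonate and wound response 1 rose, and neither of 2 flavonoid genes was called. Whether these counts differ from the shares over all genes was not tested. Means were under 1 at both times for 59 genes of these lists. Their median difference was 0.04, the same as over all genes with a probe set of their own. GSTL3, of the glutathione transferases, fell by 2.11 ± 0.30 (adjusted p = 4.27e-05), and 2 of 14 members fell in all. GSTU25, with means of 1.17 and 3.84, was not called (difference 2.66, adjusted p = 0.0857, and 0.00104 on the 6 arrays alone). Of 13 chaperones Hsp70-2 was the 1 that rose, by 0.89 ± 0.28 (adjusted p = 0.0345), a call lost without any of the 6 arrays (0.0603 to 0.115). None of 8 WRKY and ethylene-response factors was called.

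Lists of genes for making and handling RNA were chosen after their values had been seen, so their counts describe the choice. Of 12 RNA polymerase subunits 3 rose, of 6 LSM proteins 3 rose, of 5 genes of ribosomal RNA processing and the RNA exosome 4 rose, and in none of these lists did a member fall. The polymerase count was 1 without the 36 h array of C and 5 with the letter as a block, and the count for ribosomal RNA was 2 without the 0 h array of B. NRPA2 (adjusted p = 0.062) and YAO (0.0629) were among the calls lost without that array. NRPB12, a small subunit of RNA polymerase II, read 6.49, 5.49 and 6.12 at 0 h and 7.55, 7.50 and 7.60 at 36 h (rise 1.51 ± 0.27, adjusted p = 0.00057). The 0 h array of B was the lowest and the 36 h arrays were nearly equal.

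LSM6A, of the ring proteins that bind RNA ends, went from 4.27, 3.13 and 3.85 to 5.06, 5.37 and 5.87 (rise 1.68 ± 0.31, adjusted p = 0.000674). DIM1A, a methylase of ribosomal RNA, rose by 1.81 ± 0.44 (adjusted p = 0.00785, and 0.0662 without the 0 h array of B), and RRP41, a core subunit of the exosome that degrades RNA, rose by 1.46 ± 0.22 (adjusted p = 8.1e-05). LSM6A, DIM1A and NRPB12 were each lowest at 0 h in B, the array with the largest GAPDH difference of the 6. LSM6A and NRPB12 had reached means of 5.24 and 7.67 by 12 h.

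In a list of 4 genes of phosphocholine and phospholipid synthesis, chosen in the same way, 1 rose and 2 fell. PMEAMT, a phosphoethanolamine methyltransferase that starts phosphocholine synthesis, went from 5.29, 5.59 and 5.95 to 2.80, 3.10 and 2.86. It fell by 2.69 ± 0.34 (adjusted p = 1.17e-05), and CCT1, the enzyme that activates phosphocholine for membrane lipid synthesis, fell by 2.19 ± 0.33 (adjusted p = 7.98e-05). AAPT2 of the same list rose by 0.83, a call lost on leaving out any of 4 of the 6 arrays (adjusted p = 0.116 to 0.164). CCT2 was not called.

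Against its neighbours in time, 36 h differed in few probe sets in the fit to all arrays, with counts that varied widely between settings. Between 24 h and 36 h 30 of 22743 passed the test (0.132%), 11 upward and 19 downward, and 1288 had an unadjusted p under 0.05. Between 36 h and 48 h 30 passed (0.132%), 25 upward and 5 downward, and 1047 had an unadjusted p under 0.05. The number depends on single arrays: it was 14 to 72 for the step from 24 h, with 72 on leaving out the 36 h array of A and 14 to 17 without each of the other 5, and 11 to 16 for the step to 48 h without each of the 36 h and 48 h arrays other than the 36 h array of A. Array weights gave 208 and 165 calls for the 2 steps, and leaving out the arrays of B gave 8 and 0. Fits to the arrays of the 2 times alone gave 35 and 127, or 15 and 226 with the letter as a block. Set against the mean of 24 h and 48 h, a comparison added after the data had been seen, no probe set passed at 36 h (0%), with 880 at an unadjusted p under 0.05 and a lowest adjusted p of 0.0924. That count was 21 without the 36 h array of A and 47 with array weights.

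FDH, the mitochondrial formate dehydrogenase that oxidises formate, fell most clearly from 24 h. It read 5.23, 4.18 and 4.86 at 24 h, 1.47, 1.67 and 1.44 at 36 h and 0.47, 0.57 and 0.51 at 48 h. It fell by 3.23 ± 0.34 from 24 h to 36 h (adjusted p = 3.96e-05), after a peak mean of 6.63 at 12 h, and so 36 h lay on the way from that peak to the floor. CP1, a papain-like cysteine protease, had risen to 3.05, 3.43 and 3.43 at 24 h and read 1.76, 0.94 and 0.99 at 36 h (fell by 2.07 ± 0.24, adjusted p = 0.000146). It had read 0.81, 1.79 and 0.82 at 0 h and was not called between 0 h and 36 h.

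Upward from 24 h, NPF4.3 rose by 2.62 ± 0.51 (adjusted p = 0.0364), from 1.01, 1.48 and 1.07, a call lost without any of the 6 arrays of these times other than the 36 h array of A (up to 0.313). AT2G43870 rose by 1.43 ± 0.22 (adjusted p = 0.00359) and kept the call without each of those arrays, but lost it without all arrays of B (0.37) and on the arrays of the 2 times alone (0.0643, or 0.165 with the letter as a block). DER2.1, a derlin of the pathway that clears misfolded proteins from the endoplasmic reticulum, read 2.50, 2.58 and 2.48 at 24 h and 3.40, 3.22 and 3.43 at 36 h (rise 0.83 ± 0.15, adjusted p = 0.0184). Its call was lost without any 24 h array or the 36 h array of C (up to 0.151).

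The serine carboxypeptidase gene scpl42 was called in both steps and in the comparison with 0 h. It read 1.80, 1.74 and 2.0 at 24 h, 2.72, 3.04 and 3.26 at 36 h and 2.13, 1.95 and 1.55 at 48 h, so that all 36 h arrays stood above all others of the 3 times. It rose by 1.16 ± 0.21 (adjusted p = 0.0246) and then fell by 1.13 ± 0.21 (adjusted p = 0.0294), and each of these calls was lost on leaving out any of 5 of 6 arrays (up to 0.276 and 0.273), the 36 h array of A being the exception.

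Some genes were still low at 36 h and rose by 48 h. AT3G27200 read 1.21, 1.99 and 2.41 at 36 h and 6.78, 6.30 and 6.38 at 48 h, a rise of 4.61 ± 0.74 (adjusted p = 0.00789). AT5G51890 went from 0.77, 2.07 and 1.23 to 5.84, 4.76 and 5.17, by 3.90 ± 0.61 (adjusted p = 0.00693). Both calls were lost without the 48 h array of A (0.0514 for each) and without all arrays of B (0.523 for AT3G27200 and 0.169 for AT5G51890). AT2G31110, which is TBL40 of the acetyltransferase family above, rose by 2.50 ± 0.48 (adjusted p = 0.0364), a call lost without any of the 6 arrays of 36 h and 48 h (up to 0.215). None of these 3 was called between 0 h and 36 h.

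**Figure D5:**
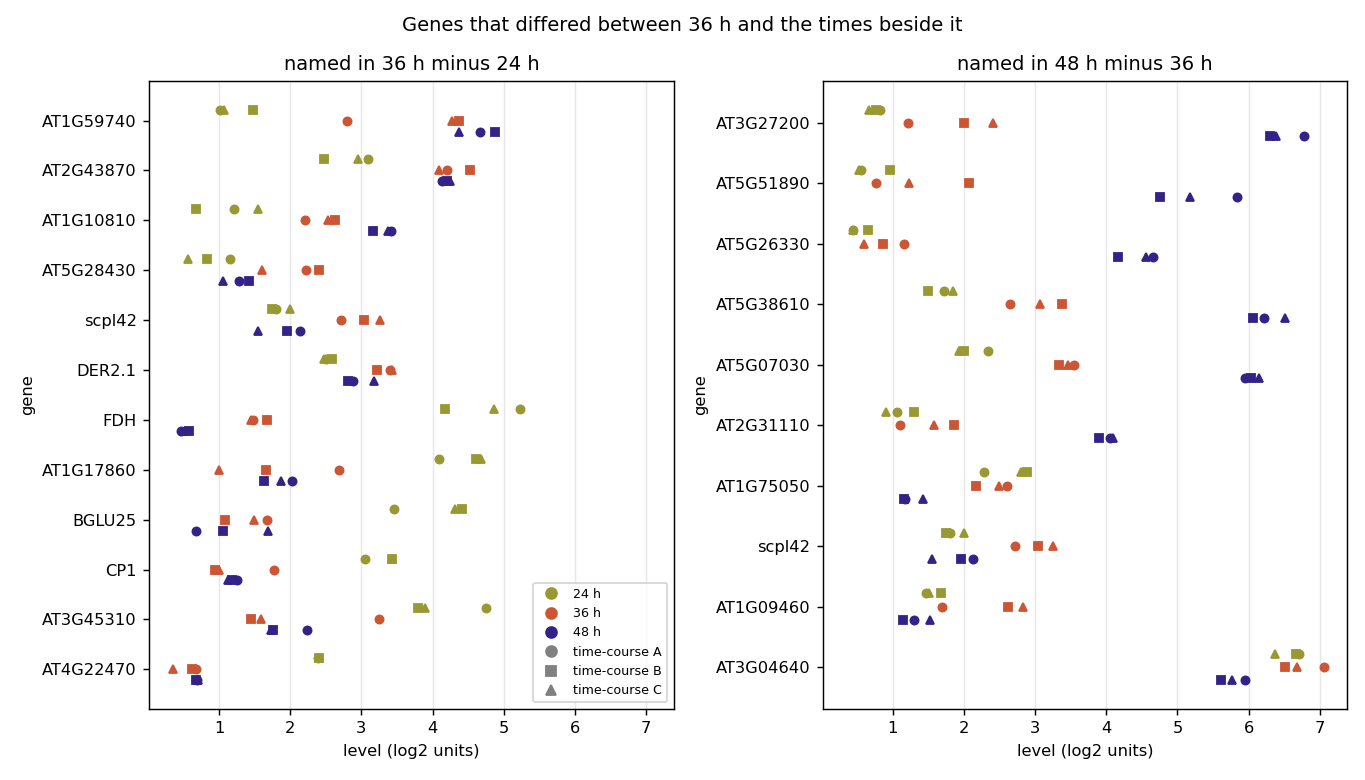
Levels (x axis, log2 units) at 24 h, 36 h and 48 h of the genes named for the step from 24 h to 36 h (left) and for the step from 36 h to 48 h (right), with a point for each array. scpl42 appears in both panels with its 36 h points above the rest, and FDH steps down at each time.

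Of the 236 genes examined under the naming rule, 113 were called between 0 h and 36 h, and in 110 of these the 0 h and 36 h levels did not overlap. Being called largely fixes that count, and over all probe sets the levels did not overlap in 30%. The 3 whose levels overlapped were CLE41, SWEET17, a sugar transporter of the vacuole, and AtLEA4-1, a dehydration protein. Without the arrays of B 43 of the 113 lost their call, on the 6 arrays alone 24 did, with the GAPDH difference as a covariate 6 did, and without the 5 arrays with the highest GAPDH difference 16 did. None changed direction under these settings.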

How the data were processed

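Total RNA was labelled and hybridised to Affymetrix arrays, per the labels' protocols. The deposited values, read here as log2 values, had been normalized with RMA before deposit, per the submitters' processing notes. The version of RMA is not given in the sources used here, and base 2 was inferred from the range of the values, so folds rest on it. From the 22810 probe sets, 64 controls were dropped, as were 3 that lack a value. Names came from the platform annotation (13511 tested probe sets with 1 gene, 503 with several, 8729 not listed) and a TAIR10.1 gene table, which 13482 matched. The 1-gene probe set with the highest mean stood for a gene.

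All 27 arrays entered a single linear model, with a mean for each time, in limma 3.58.1 under R 4.3.3 (lmFit, eBayes), and were called at an adjusted p under 0.05. The code was also run on simulated data with independent noise. Those data had no letter effect and no floor at 0, so that run does not bear on either. Text names the 12 genes that rose and the 12 that fell most among calls of 1 direction in all time-courses, 6 each for neighbouring times, and up to 4 members of each of 65 lists with the largest differences. Members and lists were chosen with earlier results of these data known, 13 lists from annotation families and 4 after values were seen. Same-letter arrays deviated together (0 h with 36 h: 0.307, 0.191 and 0.123 for A, B and C), and the design text calls letters separate time-courses, so letter pairs arrays. The fit without this block was set in the plan, with the block as an alternative, and is the one reported. With the block 4295 probe sets were called between 0 h and 36 h in place of 3075. Of 123 named genes not called, 23 were called with it, so "not called" holds for the fit without the block. The number of arrays limits precision.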

Additional observations from a re-analysis of the deposited data

How the results depend on the processing

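With the letter as a replicate block 4295 probe sets were called between 0 h and 36 h, 43 between 24 h and 36 h and 38 between 36 h and 48 h, and no call of the 113 named genes was lost, while 23 named genes gained a call. On the 6 arrays alone 2171 were called between 0 h and 36 h and 24 named calls were lost, and with the block as well 2442 and 21. No value of a named gene that was called changed direction under any alternative, and 41 of the 113 kept their call under every one. Without time-course B, 1560 probe sets were called against 0 h (656 up, 904 down), 8 against 24 h and 0 between 36 h and 48 h. A minimum change of 1 log2 unit left 357 (115 up, 242 down), 3 and 1. With only the arrays of the 2 times 127 were called between 36 h and 48 h, and with the replicate block as well 226, against 15 between 24 h and 36 h. Array weights gave 208 and 165 for the 2 steps and 47 for 36 h against the mean of its neighbours, and a GAPDH covariate gave 46 between 36 h and 48 h. Leaving out single arrays gave 2186 to 2960 against 0 h (844 to 1346 up, 1240 to 1614 down), 14 to 72 against 24 h, 11 to 29 between 36 h and 48 h, and 0 to 21 against the mean of the neighbours. The cause was not tested. The share of calls that rose was 44.2%, or 52.6% with arrays centred on their median and 50.6% after quantile normalization. Leaving out the 5 arrays with the highest GAPDH difference, chosen after seeing the data, gave 2700. Levels near 0 limit how large a fall, or a rise from there, can appear.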
